A study of Mus musculus with 18 samples.

Results

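Mice that carry TN-XXL were compared with wild type littermates in 3 tissues, and the question here was whether the genotype difference in the hippocampus departed from that in striated muscle. The measure was an interaction contrast on log2 expression values. It is the transgenic minus wild type difference in hippocampus, minus the mean of the transgenic minus wild type differences in skeletal muscle and heart. All 18 of the 18 arrays of the series entered it, 6 of hippocampus and 12 of striated muscle, with 3 arrays for each of 6 groups. The groups were wild type skeletal muscle, wild type heart, wild type hippocampus and the same 3 tissues of the transgenic mice, whose genotype the titles write as +/+. The strain was C57BL/6 in all 6 groups. Age, sex, time of tissue collection and the promoter that drives the transgene were not given in the sources used here. The labels do not say whether the arrays of a group came from separate animals or whether tissues of 1 animal share a number, so the p-values speak only to the spread among these arrays, which may be technical.

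TN-XXL is a calcium indicator protein built from a calcium-binding domain of troponin C and a pair of fluorescent proteins of different colour; when calcium binds, energy passes between them more readily. Calcium signals run through calmodulin, the phosphatase calcineurin and NFAT transcription factors, whose target Rcan1 feeds back on calcineurin. Much of the report concerns the circadian clock, the transcription loop found in most mammalian cells. Its activators, Arntl (also called Bmal1) paired with Clock or Npas2, bind E-box sequences and switch on Per, Cry, Ciart and Rev-erb (Nr1d) genes, whose proteins in turn repress the activators or their transcription. Output factors such as Tef and Hlf act at D-box sequences, and Nfil3 competes with them there. The central pacemaker lies in the hypothalamus, and muscle, heart and hippocampus hold peripheral clocks that follow it through hormones, temperature and feeding.

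Promoter windows of 6 genes with some of the larger contrasts are printed here because they hold motifs through which clock or metal signals are known to act. Each runs 5′ to 3′ from 250 bases before to 50 bases after an annotated start of the gene in RefSeq, build GRCm38.p6, with the start at position 251. Capitals mark the E-box CACGTG in Ciart, Per1 and Tef, the D-box TTATGTAA in Per3, the ROR motif AGGTCA (or TGACCT on the other strand) in Arntl and Per1, and the metal response core TGCNCNC on either strand in Mt2. The windows are chr3:95882179-95882478 on the minus strand for Ciart, chr11:69098699-69098998 on the plus strand for Per1, chr15:81802423-81802722 on the plus strand for Tef, chr4:151044616-151044915 on the minus strand for Per3, chr7:113207261-113207560 on the plus strand for Arntl and chr8:94172368-94172667 on the plus strand for Mt2.
Ciart: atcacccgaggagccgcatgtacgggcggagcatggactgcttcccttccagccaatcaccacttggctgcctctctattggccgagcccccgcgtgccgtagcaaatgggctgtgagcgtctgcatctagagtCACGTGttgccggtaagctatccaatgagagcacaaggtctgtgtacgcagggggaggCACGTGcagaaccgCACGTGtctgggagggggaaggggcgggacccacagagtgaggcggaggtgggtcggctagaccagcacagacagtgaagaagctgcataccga
Per1: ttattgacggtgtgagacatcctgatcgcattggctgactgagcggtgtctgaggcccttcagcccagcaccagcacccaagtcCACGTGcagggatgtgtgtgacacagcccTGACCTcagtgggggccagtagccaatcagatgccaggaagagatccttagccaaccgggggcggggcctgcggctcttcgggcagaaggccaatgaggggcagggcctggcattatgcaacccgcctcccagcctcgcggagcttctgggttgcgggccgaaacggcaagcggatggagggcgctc
Tef: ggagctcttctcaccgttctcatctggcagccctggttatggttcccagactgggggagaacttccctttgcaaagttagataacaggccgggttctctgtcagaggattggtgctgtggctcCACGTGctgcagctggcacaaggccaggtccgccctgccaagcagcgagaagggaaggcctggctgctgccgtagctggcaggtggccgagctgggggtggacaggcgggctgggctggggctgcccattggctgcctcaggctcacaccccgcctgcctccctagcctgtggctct
Per3: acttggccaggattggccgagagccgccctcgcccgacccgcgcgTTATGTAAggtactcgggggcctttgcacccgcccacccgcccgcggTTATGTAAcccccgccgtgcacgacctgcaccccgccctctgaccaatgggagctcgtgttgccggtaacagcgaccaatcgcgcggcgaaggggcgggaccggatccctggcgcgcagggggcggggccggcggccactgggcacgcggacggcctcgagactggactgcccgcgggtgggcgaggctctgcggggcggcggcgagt
Arntl: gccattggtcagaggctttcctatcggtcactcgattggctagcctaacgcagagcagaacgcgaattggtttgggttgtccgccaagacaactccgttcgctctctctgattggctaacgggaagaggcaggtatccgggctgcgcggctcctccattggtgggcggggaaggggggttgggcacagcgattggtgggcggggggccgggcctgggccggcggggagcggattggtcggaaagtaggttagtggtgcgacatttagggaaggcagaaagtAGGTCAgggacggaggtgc
Mt2: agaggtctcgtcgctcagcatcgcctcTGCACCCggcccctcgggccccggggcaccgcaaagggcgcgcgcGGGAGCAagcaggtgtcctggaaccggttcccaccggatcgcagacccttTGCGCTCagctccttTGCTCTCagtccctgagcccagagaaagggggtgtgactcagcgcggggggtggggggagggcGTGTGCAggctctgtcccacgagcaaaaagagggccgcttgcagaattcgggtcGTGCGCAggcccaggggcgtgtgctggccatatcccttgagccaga

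The Ciart window held 3 copies of the E-box, a number reached in 0.0883% of the 32851 promoter windows of the table, and the Per3 window held 2 copies of the D-box, reached in 0.0213%. At least 1 copy was present in 7.15% of all windows for the E-box, 0.938% for the D-box and 16.3% for the ROR motif. The Mt2 window held 6 matches to the loose pattern TGCNCNC. Of all windows, 0.225% held 6 or more such matches and 51% at least 1. Of the 13 clock genes called in the contrast, 10 had a window in the table, and these had 13 windows in all. The E-box was found in 4 of the 13 windows (Ciart, Per1 and both of Tef), the D-box in 1 (Per3) and the ROR motif in 4 (Arntl, Nfil3, Nr1d2, Per1). Arntl, Per1 and Tef have 2 windows each, of which the one printed was chosen for its motif or, for Tef, is the first. The other Arntl window, chr7:113207215-113207514, overlaps the printed one and held 0 of the ROR motif, and the other Per1 window, chr11:69099902-69100201, held 0 of the E-box and 0 of the ROR motif. These matches describe letters in a short window, and binding was not measured here.

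The values were log2 intensities of 35382 probe sets, of which 21153 carried a single gene symbol (18781 symbols). The array medians ran from 2.44 to 2.49 in muscle, from 2.61 to 2.63 in heart and from 3.68 to 3.71 in hippocampus, so levels were compared between genotypes within a tissue and not across tissues. Arrays of a group correlated at 0.982 to 0.993 over all probe sets. The median standard deviation within a group was 0.133 in hippocampus, 0.163 in muscle and 0.161 in heart. The tissue labels were borne out by marker lists: the mean of 10 hippocampal neuron markers was 9.59 to 9.71 on the hippocampus arrays and 2.85 to 3.72 on the others, that of 10 skeletal muscle markers 11.18 to 11.29 in muscle and 2.38 to 3.38 elsewhere, and that of 9 heart markers 9.65 to 10.14 in heart and 2.44 to 3.89 elsewhere. A probe set is called measured in all 3 tissues where its mean in each tissue lay above the median of that tissue's arrays, which held for 14288.

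The contrast called 472 probe sets, which is 1.33% of those tested (limma, adjusted p under 0.05), and these represent 383 genes with a single symbol. For 257 of them (0.726%) the genotype difference was higher in hippocampus than in striated muscle, and for 215 (0.608%) it was lower. Among probe sets measured in all 3 tissues, 366 were called (2.56%), 212 higher (1.48%) and 154 lower (1.08%). The median size of the contrast among the called was 0.71, and 335 of the 472 reached a 1.5-fold and 93 a 2-fold contrast. At the threshold, the last probe set inside had a contrast of -1.08 (adjusted p = 0.0492) and the first outside one of -0.68 (adjusted p = 0.0503). Fewer cells of a type and less RNA per cell cannot be told apart in these bulk samples.

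By calls, the contrast lay mainly on the striated side. Averaged over muscle and heart, 3134 probe sets (8.86%) differed between genotypes, 1506 higher (4.26%) and 1628 lower (4.6%) in the transgenic mice. In muscle alone 2884 were called (8.15%) and in heart alone 1128 (3.19%). The same fit called no probe set in hippocampus: the smallest adjusted p was 0.19, while 1784 probe sets (5.04%) had an unadjusted p under 0.05. Fitted on the 6 hippocampus arrays alone, limma again called 0, with 2451 at an unadjusted p under 0.05 and a smallest adjusted p of 0.623. Of the 472 called in the contrast, 440 were called in striated muscle and not in hippocampus, and 32 were called in neither hippocampus nor striated muscle. Their median absolute genotype difference was 0.11 in hippocampus, 0.78 in muscle and 0.41 in heart. The hippocampal difference had the opposite sign to the striated one in 325 of the 472 and the same sign in 147. An unadjusted p under 0.05 in hippocampus was found for 96 of them (20.3%), 85 with the opposite sign. The hippocampal difference is a component of the contrast that chose these probe sets, so these counts are a description.

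The comparison with each striated tissue on its own was uneven. Hippocampus against muscle called 1204 probe sets (3.4%) and hippocampus against heart 206 (0.582%). Of the 472, 72 were called against both tissues, 325 against muscle and not heart, 53 against heart and not muscle, and 22 against neither alone. Heart and muscle themselves differed in genotype effect at 903 probe sets (2.55%), and 156 of these were among the 472. Many of the genes described below are therefore given with both striated tissues side by side, though some are given with only 1 of them or with the contrast alone.

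**Figure D1:**
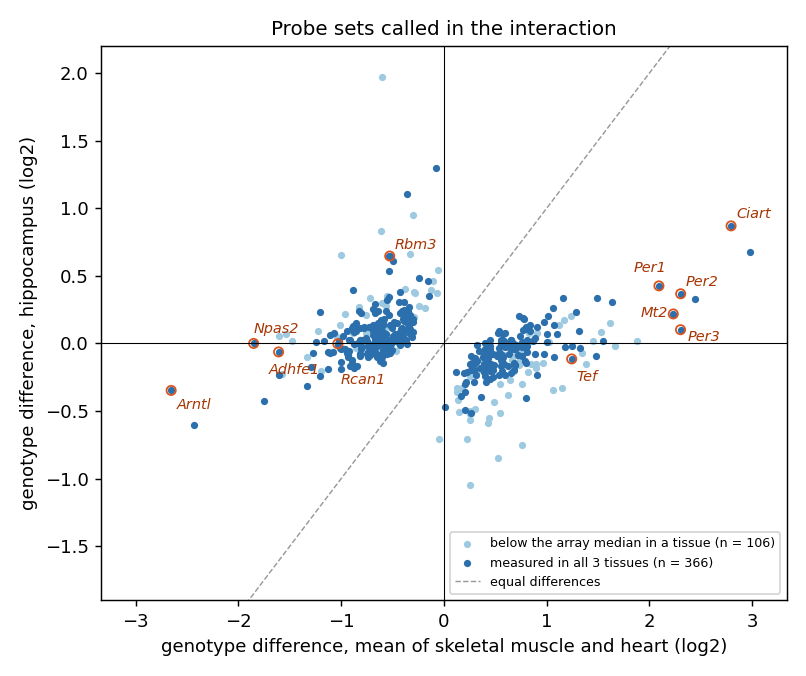
Genotype difference in hippocampus (vertical axis, log2, transgenic minus wild type) against the mean genotype difference of skeletal muscle and heart (horizontal axis, log2) for the 472 probe sets called in the contrast; dark points are the 366 measured in all 3 tissues, light points the other 106, and the dashed line marks equal differences. The called probe sets spread along the horizontal axis and most stay near 0 on the vertical one, where their median absolute difference was 0.11.

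Arntl and Npas2 had the highest contrasts of the named genes. Of 6 on the array, 2 were called, Arntl and Npas2, and both were higher in the contrast because they fell in muscle and heart. Over all genes, counted with 1 probe set each, the contrast called 1.96%, with 1.02% higher and 0.942% lower. Arntl, the core activator, read 5.43, 5.65 and 5.94 on the wild type muscle arrays and 3.19, 3.00 and 2.62 on the transgenic ones. The Arntl values in heart were 5.54, 5.62 and 5.58 in wild type and 3.25, 3.09 and 2.69 in transgenic mice. Hippocampal Arntl read 6.24, 6.46 and 6.40 in wild type and 6.13, 6.14 and 5.79 in transgenic arrays. Every transgenic array lay below every wild type array in each tissue, by a wide gap in muscle and heart and by a narrow one in hippocampus. Arntl fell by 2.74 in muscle and by 2.57 in heart (± 0.17 SE each), and its hippocampal difference was -0.35 ± 0.17 (95% interval -0.71 to 0.02), which is 13.1% of the striated difference. The contrast was 2.31 ± 0.21 (95% interval 1.86 to 2.75; adjusted p = 1.24e-04), or 4.95-fold.

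Npas2, which can take the place of Clock as partner of Arntl and is prominent in forebrain, read 4.89, 4.77 and 5.59 in wild type muscle and 3.20, 3.10 and 3.09 in transgenic muscle. In heart, the Npas2 values were 6.02, 6.00 and 6.10 against 4.56, 4.27 and 4.04. The hippocampus gave 7.80, 7.67 and 7.63 for wild type and 7.66, 7.67 and 7.78 for transgenic arrays. The genotypes were apart in both striated tissues and interleaved in hippocampus. Npas2 fell by 1.95 in muscle and 1.75 in heart, with a hippocampal difference of 0.00 (95% interval -0.36 to 0.36) and a contrast of 1.85 ± 0.21 (adjusted p = 4.76e-04). Clock itself did not pass the test, with a contrast of 0.40 ± 0.11 (adjusted p = 0.108) and differences of -0.42 in muscle, -0.59 in heart and -0.10 in hippocampus. The contrasts of Arntl2, Rora and Rorb, which complete the list, ran from -0.24 to 0.13 and were not called.

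The Period genes, repressors that bind Cry proteins and shut off Arntl and Clock, had some of the lowest contrasts. Of 13 repressors on the array, 6 were called lower (Per1, Per2, Per3, Cry2, Ciart, Nr1d2) and 1 higher (Nfil3), and the median contrast of the 13 was -0.64 against -0.02 over all genes. Per1 read 4.43, 4.55 and 5.30 in wild type muscle and 6.70, 6.93 and 6.99 in transgenic muscle. Heart values of Per1 were 4.36, 4.72 and 5.21 against 6.79, 6.89 and 6.83. In hippocampus, Per1 read 6.52, 6.77 and 6.68 in wild type and 6.97, 7.10 and 7.19 in transgenic arrays. The transgenic arrays were above the wild type arrays in all 3 tissues without overlap. Per1 rose by 2.11 in muscle and 2.07 in heart, the hippocampal difference was 0.43 ± 0.21 (95% interval -0.02 to 0.88), and the contrast was -1.67 ± 0.26 (adjusted p = 0.00461).

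Per2 had the same order. It read 2.90, 2.70 and 2.97 in wild type and 4.87, 5.08 and 5.58 in transgenic muscle. Heart gave 3.47, 3.17 and 3.28 against 5.33, 5.55 and 5.89 for Per2. Hippocampal Per2 was 6.13, 6.12 and 6.16 against 6.24, 6.62 and 6.66. The 3 wild type hippocampus arrays lay close together, and the lowest transgenic array stood just above them. The hippocampal difference was 0.37 ± 0.18 (95% interval -0.01 to 0.74) beside 2.32 in muscle and 2.29 in heart, and the contrast was -1.94 ± 0.22 (adjusted p = 4.76e-04).

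Per3 differed from Per1 and Per2 in hippocampus, where its genotypes overlapped. Its values there were 6.11, 6.29 and 6.14 in wild type and 6.14, 6.26 and 6.45 in transgenic arrays. Muscle read 4.01, 4.14 and 3.22 for Per3 in wild type and 5.70, 5.94 and 5.93 in transgenic mice. In heart, Per3 was 3.58, 3.70 and 3.03 against 5.91, 5.98 and 6.04. The third wild type array was the lowest of its group in both striated tissues, and the transgenic arrays were higher than all wild type ones. Per3 rose by 2.06 in muscle and 2.54 in heart, with 0.10 ± 0.20 in hippocampus and a contrast of -2.20 ± 0.25 (adjusted p = 5.09e-04). Whether the hippocampal difference of Per3 departs from those of Per1 and Per2 was not tested.

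Ciart, a repressor that acts on the Arntl and Clock pair and whose window held the 3 E-boxes printed above, had the largest hippocampal difference of the named clock genes. It read 4.61, 4.42 and 4.74 in wild type and 5.26, 5.72 and 5.40 in transgenic hippocampus. Muscle gave 2.41, 2.69 and 2.08 against 4.88, 5.02 and 5.98 for Ciart. Heart gave 2.41, 3.27 and 2.88 against 5.17, 5.50 and 5.94. The genotypes were apart in all 3 tissues. Its hippocampal difference of 0.87 ± 0.29 (95% interval 0.26 to 1.48) was not called (adjusted p = 0.81), beside 2.90 in muscle and 2.69 in heart, and the contrast was -1.92 ± 0.35 (adjusted p = 0.0123). A second Ciart probe set had a contrast of -2.11 ± 0.33 (adjusted p = 0.00523) with a hippocampal difference of 0.33 and overlapping genotypes there, so the probe sets differ on the hippocampal side.

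The other repressors had smaller contrasts. Cry2, a partner of the Period proteins, rose by 0.84 in muscle and 0.74 in heart, with 0.12 ± 0.11 in hippocampus and a contrast of -0.67 ± 0.14 (adjusted p = 0.0231). Cry1 was not called at 0.59 ± 0.17 (adjusted p = 0.112), with -0.53 in muscle, -0.18 in heart and 0.24 in hippocampus. Nr1d2, the Rev-erb beta receptor that represses Arntl transcription, rose by 0.91 in muscle and 1.40 in heart. It read 7.24, 7.15 and 7.03 in wild type and 7.22, 7.58 and 7.62 in transgenic hippocampus, where the first transgenic array fell among the wild type ones. The Nr1d2 contrast was -0.82 ± 0.15 (adjusted p = 0.011), while a second probe set of the gene gave -0.13 (adjusted p = 0.77). Nfil3, which opposes Tef and Hlf at D-boxes, moved the other way: it fell by 1.33 in muscle and 1.88 in heart, with -0.24 ± 0.22 in hippocampus and a contrast of 1.37 ± 0.27 (adjusted p = 0.0198). Leaving out any of 5 hippocampus arrays (all but the third wild type one) ended the call of Cry2, at adjusted p of 0.0523 to 0.0755. For Nfil3 the call ended without any of 4 hippocampus arrays (wild type 1 and 3, transgenic 1 and 2), at 0.0639 to 0.0691. Bhlhe41, a repressor of the same E-boxes, was not called at -0.64 (adjusted p = 0.347), and Dbp and Nr1d1 were not analysed here.

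Clock outputs were mixed on the hippocampal side. Of 12 on the array, 3 were called lower (Tef, Wee1, Usp2) and 1 higher (Rbm3). Tef, a D-box activator, read 6.39, 6.57 and 6.57 in wild type and 7.35, 7.56 and 7.83 in transgenic muscle. Heart Tef was 5.50, 5.27 and 5.60 against 6.63, 7.03 and 6.95. Hippocampal Tef was 7.31, 7.43 and 7.33 against 7.20, 7.25 and 7.28. Transgenic arrays were above wild type ones in both striated tissues and just below them in hippocampus. Tef rose by 1.07 in muscle and 1.42 in heart, with -0.12 in hippocampus, and the contrast was -1.36 ± 0.16 (adjusted p = 5.09e-04).

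Usp2, a deubiquitinase with strongly cycling transcript, read 7.35, 7.28 and 7.28 in wild type and 7.52, 7.69 and 7.49 in transgenic hippocampus. All 3 transgenic arrays were above all wild type ones, yet the difference of 0.26 ± 0.08 was not called (adjusted p = 0.735). Usp2 rose by 1.09 in muscle and 1.02 in heart, and its contrast was -0.80 ± 0.10 (adjusted p = 7.83e-04). Wee1, a kinase that delays entry into mitosis and a known clock target, rose by 0.77 in muscle and 1.88 in heart and differed by -0.03 in hippocampus, with a contrast of -1.36 ± 0.26 (adjusted p = 0.0172). Without any of 4 hippocampus arrays (wild type 1 and 2, transgenic 1 and 2) Wee1 was no longer called, at adjusted p of 0.054 to 0.0601. Hlf, the relative of Tef, missed the threshold at -0.70 ± 0.17 (adjusted p = 0.0535), with 0.16 in muscle, 1.38 in heart and 0.07 in hippocampus.

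Rbm3, an RNA-binding protein induced by mild cold, was the called clock output with the largest difference on the hippocampal side. It read 7.81, 7.67 and 7.68 in wild type and 8.25, 8.54 and 8.30 in transgenic hippocampus. Muscle ran the opposite way, with 7.90, 7.73 and 7.22 against 6.75, 6.72 and 6.26. Heart Rbm3 was 7.54, 7.57 and 7.52 against 7.45, 7.72 and 7.35. The genotypes were apart in hippocampus and muscle, in opposite directions, and overlapped in heart. Rbm3 fell by 1.04 in muscle, differed by -0.04 in heart and by 0.64 ± 0.17 in hippocampus (95% interval 0.29 to 1.00; adjusted p = 0.562), and the contrast was 1.18 ± 0.20 (adjusted p = 0.00798). Its 3 probe sets gave contrasts of 1.18, 1.17 and 1.11. Cirbp, the related cold-inducible protein, was not called in the contrast at 0.51 (adjusted p = 0.248), and its hippocampal difference was 0.56 (unadjusted p = 0.00218) with transgenic arrays above wild type ones.

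**Figure D2:**
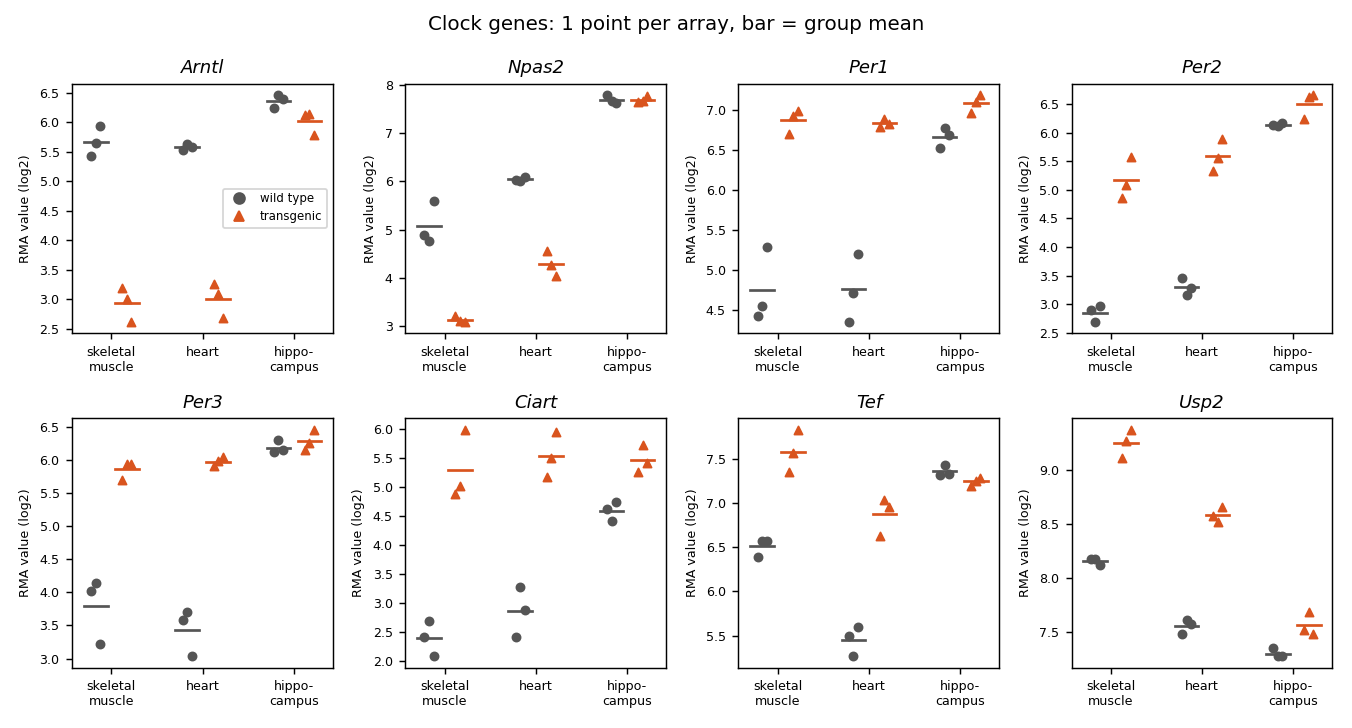
Log2 expression of 8 clock genes (Arntl, Npas2, Per1, Per2, Per3, Ciart, Tef and Usp2) on each of the 18 arrays, by tissue and genotype; points are arrays and bars are group means of 3. The genotypes are widely apart in skeletal muscle and heart for each gene, and in hippocampus they overlap or lie closer together than there; of the 8, Ciart has the widest hippocampal difference, at 0.87.

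Across the 3 clock lists, 31 genes were on the array and 13 were called in the contrast. In hippocampus, the transgenic and wild type arrays did not overlap for 15 of the 31, 10 above and 5 below, where 14.6% of all genes were apart in this way (6.01% above and 8.6% below). Of these 15, 11 were apart in the direction of the striated difference (Arntl, Clock, Per1, Per2, Cry2, Ciart, Fbxl21, Usp2, Tspan4, Ppp1r3c and Cirbp) and 4 against it (Rorb, Cry1, Tef and Rbm3). Over all genes, 1514 of the 2745 that were apart in hippocampus went in the direction of the striated difference. Of the 31, limma called 0 in hippocampus, and 6 had an unadjusted p under 0.05 there, as 962 of all 18781 genes did. Among the 13 called in the contrast, 6 were apart in the striated direction, 2 against it and 5 overlapped. The 31 genes were put together with earlier results of these data known, so the counts describe them and test nothing.

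Metallothioneins bind zinc and copper and respond to metals and glucocorticoids. Of 9 genes in the metallothionein and zinc list, 1 was called, Mt2, and of 20 glucocorticoid-responsive genes the same gene was the only call. Mt2 read 6.75, 6.54 and 7.29 in wild type and 9.87, 9.81 and 10.03 in transgenic muscle. Heart gave 6.81, 7.30 and 8.53 against 8.65, 8.95 and 9.31. Hippocampal Mt2 was 10.34, 10.50 and 10.68 against 10.68, 10.72 and 10.77. The genotypes were far apart in muscle and close in heart, where the third wild type array neared the transgenic ones, and in hippocampus they overlapped at their edge. Mt2 rose by 3.04 in muscle and 1.42 in heart and differed by 0.22 ± 0.32 in hippocampus (95% interval -0.46 to 0.90), with a contrast of -2.01 ± 0.39 (adjusted p = 0.0179). The call ended without any of 5 hippocampus arrays (all but the first wild type one), at adjusted p of 0.0501 to 0.061. Mt1, its neighbour, was not called at -0.64 (adjusted p = 0.253).

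Several genes outside the clock with high contrasts were lower in the transgenic striated muscle, with small differences in hippocampus. Adhfe1, an enzyme of hydroxybutyrate oxidation in mitochondria, read 7.46, 7.46 and 7.71 in wild type and 5.56, 5.60 and 5.48 in transgenic muscle. Heart Adhfe1 was 8.62, 8.62 and 8.51 against 7.49, 7.50 and 7.09. In hippocampus it was 6.72, 6.71 and 6.81 against 6.56, 6.72 and 6.77. The striated groups were apart and the hippocampal ones overlapped. Adhfe1 fell by 1.99 in muscle and 1.23 in heart, with -0.06 in hippocampus, and its contrast was 1.55 ± 0.13 (adjusted p = 9.47e-05).

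Ypel2, Lsm14b, Mrpl54 and Ddah1 followed the same order. Ypel2 had a contrast of 1.25 ± 0.13 (adjusted p = 2.59e-04), with -1.27 in muscle, -1.21 in heart and 0.01 in hippocampus. Lsm14b, of an RNA-binding family, gave 1.18 ± 0.14 (adjusted p = 6.33e-04) and Mrpl54, a mitochondrial ribosomal protein, 1.17 ± 0.14 (adjusted p = 6.04e-04). Their hippocampal differences were 0.01 and 0.06. Ddah1, which degrades the nitric oxide synthase inhibitor dimethylarginine, fell by 1.40 in muscle and 1.15 in heart and differed by -0.07 in hippocampus, with a contrast of 1.20 ± 0.20 (adjusted p = 0.00772). Ccn1, a matricellular protein, stood out on the hippocampal side with a difference of 0.39 ± 0.18 that was not called, beside -0.71 in muscle and -1.05 in heart, and a contrast of 1.28 ± 0.22 (adjusted p = 0.00826).

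Odc1, the first enzyme of polyamine synthesis, was a gene of muscle rather than of both striated tissues. It read 6.34, 6.48 and 6.29 in wild type and 4.16, 4.22 and 4.59 in transgenic muscle. Heart Odc1 was 4.42, 4.51 and 4.65 against 3.98, 4.19 and 4.32, and hippocampal Odc1 was 4.35, 4.40 and 4.05 against 4.84, 4.41 and 4.25. The drop in muscle was large, the genotypes in heart were apart by a small gap, and those in hippocampus overlapped. Odc1 fell by 2.05 in muscle, with -0.36 in heart and 0.23 in hippocampus, and its contrast was 1.43 ± 0.19 (adjusted p = 0.00163). A second Odc1 probe set gave 1.06 (adjusted p = 0.004).

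The larger lower contrasts outside the clock belonged to genes that were higher in transgenic striated muscle. Ift27, a small GTPase of intraflagellar transport, read 3.75, 3.79 and 3.78 in wild type and 6.53, 6.16 and 6.33 in transgenic muscle. Its heart values were 3.02, 2.84 and 3.00 against 3.56, 3.14 and 3.31, and its hippocampal ones 4.36, 4.54 and 3.97 against 4.24, 4.48 and 3.86. The rise belonged to muscle, at 2.57, beside 0.38 in heart and -0.10 in hippocampus, and the contrast was -1.57 ± 0.20 (adjusted p = 0.00118). Fbxo36, an F-box protein, rose about equally in muscle (1.63) and heart (1.65), and in hippocampus it read 4.75, 5.24 and 5.24 against 5.34, 5.44 and 5.39. All 3 transgenic hippocampus arrays stood above the wild type ones for Fbxo36, with a difference of 0.31 that was not called and a contrast of -1.33 ± 0.18 (adjusted p = 0.00209). Lrrc51 had a contrast of -1.53 ± 0.21 (adjusted p = 0.00209), with 2.00 in muscle, 1.09 in heart and 0.02 in hippocampus. Ak4, a mitochondrial adenylate kinase, was called at -1.26 ± 0.28 (adjusted p = 0.0419), but its second probe set was not (-0.87, adjusted p = 0.087), and leaving out any of 15 single arrays ended the call.

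Some called genes were not measured in all 3 tissues, so their hippocampal values lie near the floor of these arrays or the gene is dim in a striated tissue. Nmrk2, a striated muscle kinase of NAD synthesis, rose by 1.99 in muscle and 1.76 in heart. Its hippocampal values of 2.75, 2.25 and 2.23 against 2.35, 2.41 and 2.54 lay below the hippocampal array median, and its contrast was -1.86 ± 0.21 (adjusted p = 5.09e-04). Mzb1, a chaperone known from B cells, gave -1.68 ± 0.20 (adjusted p = 5.29e-04), and Mfsd4b1, a transporter gene, 1.66 ± 0.16 (adjusted p = 1.32e-04). Adcy2, an adenylyl cyclase, gave 1.61, Mfsd4b3-ps 1.49, 1700001O22Rik 1.36 and Cish, an inhibitor of cytokine signalling, 1.31. On the lower side were Tmem28 at -1.54, Vsig10l at -1.48, BC051142 at -1.46 and Snai3 at -1.45. Trdn, a protein of the junctional sarcoplasmic reticulum, was called at 1.65 ± 0.32 (adjusted p = 0.0193) on 1 of 19 probe sets, with a hippocampal difference of 0.65 (unadjusted p = 0.0258). The call ended without any of 5 arrays for Trdn and for 1700001O22Rik and of 12 for Cish, at adjusted p of 0.0501 to 0.1.

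**Figure D3:**
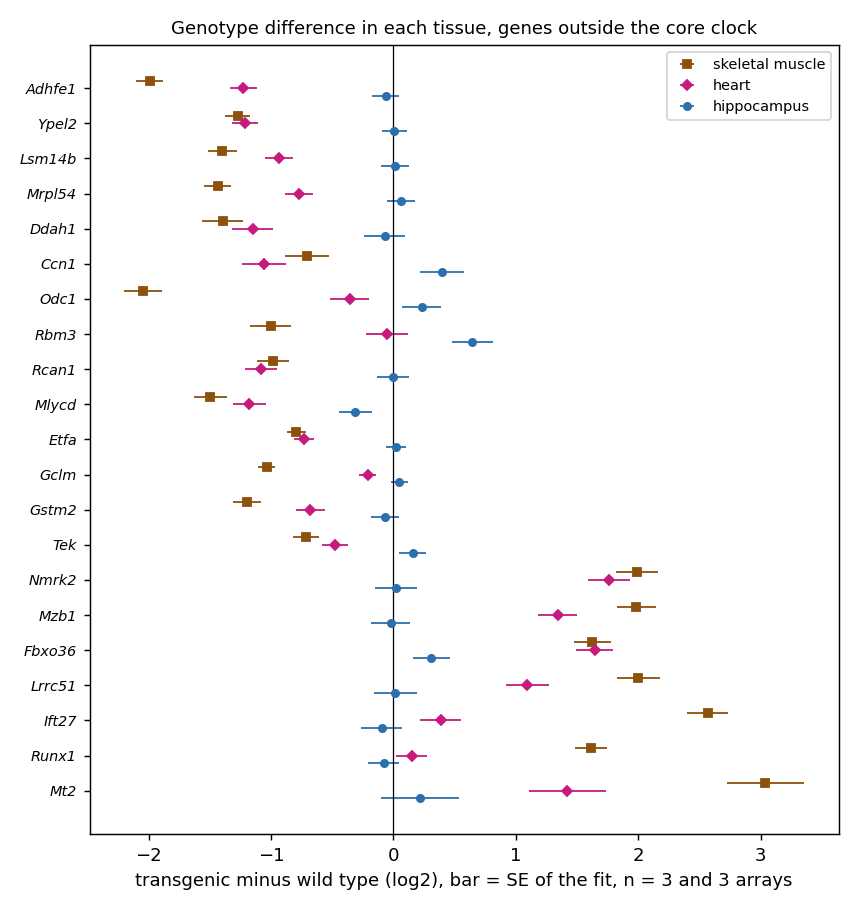
Genotype difference (log2, transgenic minus wild type) with its standard error in skeletal muscle, heart and hippocampus for 21 called genes outside the core clock lists, except Rbm3, which is a member of the output list. The hippocampal points lie near 0 for most genes, with Rbm3 (here its probe set at 0.65) and Ccn1 at 0.39 above it.

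The calcium genes are the group nearest to the purpose of the indicator. Of 21 calmodulin, calcineurin and NFAT genes, 2 were called higher (Rcan1 and Ppp3cb) and 1 lower (Nfatc2), of 41 calcium channels and pumps 1 higher (Cacna2d1), and of 23 calcium buffers and sensors 0 by limma, with 1 at an unadjusted p under 0.05. These counts stand beside 1.96% called over all genes. An unadjusted p under 0.05 in the contrast (limma) was found for 6 of the 21 and 12 of the 41, beside 14.8% of all genes. Atp2b3, a calcium pump of the plasma membrane, just missed the threshold at 0.72 (adjusted p = 0.0509). It was called under several alternatives, such as centring each array (0.0434) or array weights (0.0192). Rcan1, the calcineurin inhibitor, read 7.65, 7.96 and 8.18 in wild type and 7.07, 6.88 and 6.90 in transgenic muscle. Heart Rcan1 was 8.43, 8.43 and 8.07 against 7.29, 7.15 and 7.24. Hippocampal values were 6.08, 6.13 and 6.35 against 6.17, 6.11 and 6.27. The genotypes were apart in both striated tissues and interleaved in hippocampus. Rcan1 fell by 0.98 in muscle and 1.08 in heart, with 0.00 in hippocampus and a contrast of 1.03 ± 0.16 (adjusted p = 0.00484).

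Ppp3cb, a catalytic subunit of calcineurin, was called at 0.48 ± 0.11 (adjusted p = 0.0381), with -0.88 in muscle and -0.01 in heart. Nfatc2, a transcription factor that calcineurin activates, had a contrast of -0.68 ± 0.12 (adjusted p = 0.0131), with 0.88 in muscle and 0.22 in heart. Cacna2d1, the auxiliary subunit of voltage-gated calcium channels, gave 0.77 ± 0.15 (adjusted p = 0.017), with -0.90 in muscle, -0.26 in heart and 0.18 in hippocampus, and a second probe set gave 0.70 (adjusted p = 0.0032). Leaving out 1 array ended the call of Ppp3cb for 13 of the 18 arrays (adjusted p of 0.0542 to 0.113). The Nfatc2 call ended without hippocampus array wild type 3, transgenic 2 or transgenic 3 (0.05 to 0.0517), and that of the first Cacna2d1 probe set without wild type 3 (0.062) or transgenic 2 (0.0697).

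Immediate early genes, the usual transcript record of neuronal activity, gave 0 calls among 24 by limma, with 6 at an unadjusted p under 0.05 and a median contrast of 0.01. Over all genes, 14.8% had an unadjusted p under 0.05 in the contrast, against which such counts are to be read. In hippocampus, 7 of the 24 had an unadjusted p under 0.05 by limma, as 962 of all 18781 genes did. Homer1 just missed the threshold of the contrast at 0.52 (adjusted p = 0.0505). It was called under several alternatives, such as centring each array (0.0433) or keeping only probe sets measured in all tissues (0.0178). Junb, an AP-1 subunit of that list, read 5.04, 5.07 and 5.11 in wild type and 5.66, 5.61 and 5.25 in transgenic hippocampus. The transgenic arrays were all above the wild type ones, with a difference of 0.44 (unadjusted p = 4.08e-04, adjusted p = 0.467) beside 0.50 in muscle and 0.02 in heart, and a contrast of 0.17 (adjusted p = 0.623). Nr4a3, an orphan nuclear receptor, was not called at -0.89 (adjusted p = 0.242), with 2.35 in muscle, -0.05 in heart and 0.26 in hippocampus.

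Fatty acid oxidation genes gave calls in both directions. Of 27 fatty acid oxidation genes, 3 were called higher (Mlycd, Etfa, Cpt1c) and 1 lower (Acot2), with a median contrast of 0.12. Mlycd, the malonyl-CoA decarboxylase that relieves the brake on fatty acid import, fell by 1.5 in muscle and 1.18 in heart. In hippocampus, Mlycd read 4.59, 4.75 and 4.79 in wild type and 4.49, 4.44 and 4.27 in transgenic arrays, all 3 below. The hippocampal difference of -0.31 (95% interval -0.60 to -0.03) was not called (adjusted p = 0.969), and the contrast was 1.02 ± 0.16 (adjusted p = 0.00565). Etfa, a subunit of the flavoprotein that takes electrons from fatty acid oxidation, fell by 0.79 in muscle and 0.73 in heart with 0.02 in hippocampus, at a contrast of 0.78 ± 0.10 (adjusted p = 0.00104). Cpt1c (0.39, adjusted p = 0.0419) and Acot2 (-0.77, adjusted p = 0.0483) lay near the threshold, and leaving out any of 15 and 16 single arrays ended their calls.

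Of 25 antioxidant and glutathione genes, 3 were called higher (Gclm, Gstm2, Nqo1) and 1 lower (Gpx1), with a median contrast of 0.03. Gclm, the modifier subunit of the first enzyme of glutathione synthesis, read 5.87, 5.84 and 5.80 in wild type and 4.80, 4.87 and 4.73 in transgenic muscle. In hippocampus it was 6.83, 6.83 and 6.82 against 6.81, 6.89 and 6.94. The fall was in muscle (1.04), with -0.21 in heart and 0.05 in hippocampus, and the contrast was 0.67 ± 0.09 (adjusted p = 0.00133). Gstm2, a glutathione transferase, gave 0.87 ± 0.14 (adjusted p = 0.0067) and Nqo1, a quinone reductase, 0.96 ± 0.18 (adjusted p = 0.0156). Gpx1, a glutathione peroxidase, rose by 1.05 in muscle, and its contrast was -0.70 ± 0.15 (adjusted p = 0.0275). The Nqo1 call ended without hippocampus array wild type 3 (0.0564) or transgenic 2 (0.0636), and the Gpx1 call without any of 4 hippocampus arrays (wild type 1 and 2, transgenic 1 and 3; 0.0809 to 0.087).

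Respiratory chain and ribosomal genes had small median contrasts. Of 42 oxidative phosphorylation subunits, 2 were called lower, Ndufa1 at -0.45 (adjusted p = 0.0194) and Ndufa2 at -0.54 (adjusted p = 0.0483), both of complex I, and the median was -0.07. Over all genes, 0.942% were called lower and 1.02% higher. The contrast was positive for 8 of the 42. In muscle 12 of the 42 were called higher and in heart 0, beside 3.86% and 1.57% of all probe sets. Of 32 ribosomal protein genes, 1 was called higher, Rps20 at 0.48 (adjusted p = 0.0163), and the median was -0.03. Leaving out single arrays ended the calls of Ndufa1 (4 arrays, 0.0573 to 0.07), Ndufa2 (16 arrays, 0.0512 to 0.14) and Rps20 (3 arrays, 0.0504 to 0.0563). A list of mitochondrial fatty acid synthesis with lipoate and malonyl-CoA genes was added after the values were seen, around genes already known to be called. It had 4 of 12 genes called, beside 1.96% of all genes. Among the 4 was Mlycd, which is also counted above among the fatty acid oxidation genes. Ndufab1, the acyl carrier protein, went the other way at -0.40 (adjusted p = 0.0434), with 0.48 in muscle and 0.33 in heart. Mecr and Mcat, enzymes of mitochondrial fatty acid synthesis, had contrasts of 1.02 (adjusted p = 3.84e-04) and 1.03 (adjusted p = 0.00542). Their differences were -1.09 and -1.06 in muscle, -1.07 and -1.0 in heart, and -0.06 and 0.00 in hippocampus.

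Lists specific to 1 tissue gave at most 1 call each, beside 1.96% called over all genes. Of 29 contractile genes 1 was called lower, Actc1, of 22 synaptic vesicle genes 1 lower, Vamp1 at -0.60 (adjusted p = 0.0382), of 19 neuropeptide and interneuron genes 1 lower, Nos1 at -0.89 (adjusted p = 0.00487), and of 27 glutamate and GABA receptor subunits 0 by limma, with 0 at an unadjusted p under 0.05. The lowest hippocampal difference was -0.06 in the synaptic vesicle list and -0.20 in the neuropeptide and interneuron list. The contrasts of Vamp1 and Nos1 thus lay mainly in higher transgenic values in striated muscle. Nos1 was not measured in all 3 tissues. Actc1, the cardiac actin, had a hippocampal difference of -0.56 (unadjusted p = 9.78e-05, adjusted p = 0.402) beside 0.47 in muscle and a contrast of -0.81 ± 0.13 (adjusted p = 0.00565), and it was not measured in all 3 tissues. Among 12 heat shock genes and 23 interferon genes, each counted by its probe set of highest mean, limma called 0, with 3 and 2 at an unadjusted p under 0.05. Hsp90aa1, a cytosolic chaperone of the heat shock list, has 3 probe sets: the counted one gave 0.48 (adjusted p = 0.0612), another was called at 0.50 (adjusted p = 0.0483) and the last gave 0.64 (adjusted p = 0.0622). The Vamp1 call ended without any of 13 single arrays, at adjusted p of 0.0538 to 0.115.

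**Figure D4:**
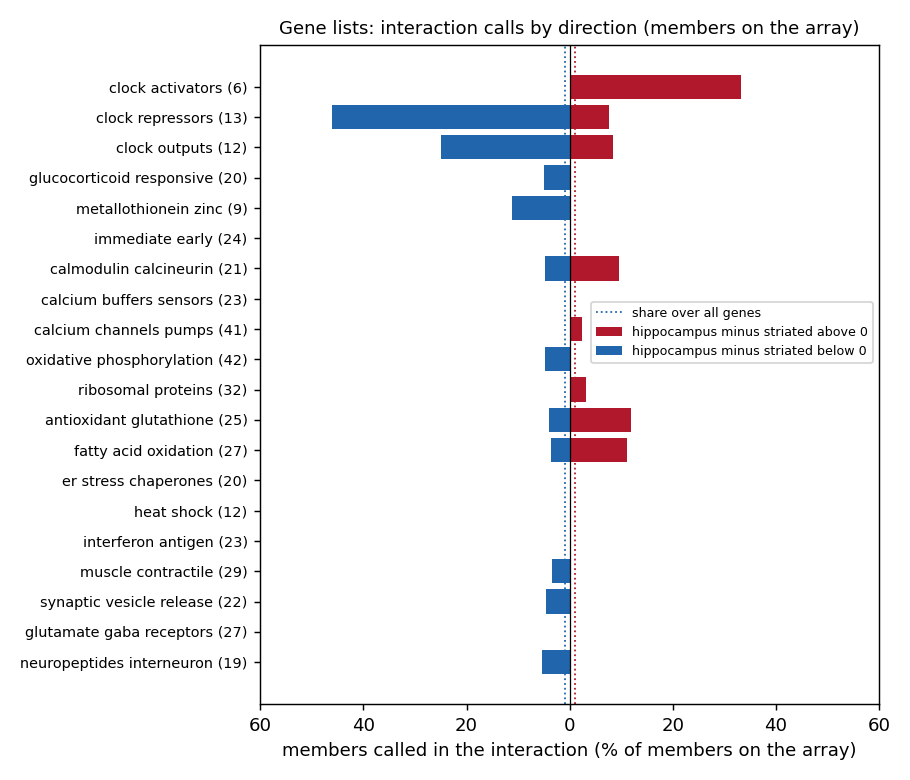
Percent of the members of each gene list called higher or lower in the contrast (limma, adjusted p under 0.05; a gene is counted by its probe set of highest mean), with dotted lines at the shares over all genes, 1.02% higher and 0.942% lower. Bars run to the right for higher and to the left for lower. The clock lists have the longest bars, with 2 of 6 activators higher and 6 of 13 repressors lower.

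Markers of cell types gave these values beside the gene groups. Of 13 endothelial markers, 1 was called, Tek, the angiopoietin receptor, with a contrast of 0.75 ± 0.13 (adjusted p = 0.0092) and -0.72 in muscle, -0.48 in heart and 0.16 in hippocampus. The contrast was positive for 12 of the 13, with a median of 0.25, and the median genotype differences were -0.17 in muscle, -0.30 in heart and 0.02 in hippocampus. The mean of the 13 was 6.35 to 6.53 on wild type and 5.91 to 6.25 on transgenic muscle arrays, 7.55 to 7.63 and 7.15 to 7.39 in heart, and 5.69 to 5.81 and 5.55 to 5.74 in hippocampus. Pericyte and smooth muscle markers had a positive contrast in 10 of 10, with a median of 0.20 and 0 called by limma (3 at an unadjusted p under 0.05), and their mean in hippocampus was 4.91 to 5.22 on wild type and 5.18 to 5.33 on transgenic arrays. Of 8 adipocyte markers limma called 0 in the contrast (1 at an unadjusted p under 0.05), with a median of -0.27 and a median difference of 0.57 in muscle, where the mean of the 8 was 4.88 to 5.43 on wild type and 5.55 to 5.98 on transgenic arrays. The part of endothelial, smooth muscle or fat content in the contrasts was not tested. Nppa, the atrial natriuretic peptide, was called among 9 heart markers at -0.79 (adjusted p = 0.049) with 1.36 in heart, and Cd68, a lysosomal protein of macrophages, among 12 microglia and macrophage markers at -0.87 (adjusted p = 0.0444). Both calls ended without any of 14 single arrays, at adjusted p of 0.0603 to 0.141 for Nppa and 0.0524 to 0.119 for Cd68. Among 10 Schwann cell and neuromuscular junction genes, Runx1 and Gadd45a, known to rise in denervated muscle, were called lower at -0.96 ± 0.16 (adjusted p = 0.00611) and -0.92 ± 0.15 (adjusted p = 0.00616), with 1.61 and 0.68 in muscle. Musk, a receptor kinase of the junction and also a denervation gene, went the other way without being called, at 0.64 (adjusted p = 0.0527) with -1.21 in muscle; it was called under several alternatives, at adjusted p of 0.0146 to 0.0465. Of the 10 Schwann cell and neuromuscular junction genes, 2 were called higher in muscle and 2 in heart, and 1 was called lower in muscle. Over all probe sets, 3.86% were called higher in muscle and 1.57% in heart. Among 10 hippocampal neuron, 10 astrocyte and 10 oligodendrocyte markers limma called 0, with 1, 4 and 2 at an unadjusted p under 0.05.

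In all, 32 probe sets were called in the contrast but in neither hippocampus nor striated muscle alone. The 6 named here had differences of opposite sign that added up, and the signs of the others were not counted. Myl9, a smooth muscle light chain, had a contrast of 0.62 (adjusted p = 0.0418) with 0.46 in hippocampus, and Acvrl1, an endothelial receptor of the TGF-beta family, 0.50 (adjusted p = 0.0359) with 0.35. On the lower side were Chchd5 at -0.70 (adjusted p = 0.0231) with -0.49 in hippocampus, Coprs at -0.57 (adjusted p = 0.0283) with -0.36, Glt8d2 at -0.55 (adjusted p = 0.0469) with -0.39 and 9930104L06Rik at -0.50 (adjusted p = 0.0357) with -0.30. A second Chchd5 probe set gave -0.01. Leaving out single arrays ended the calls of all 6, for 5 arrays each in Chchd5 and Coprs (adjusted p of 0.0566 to 0.0987), 12 each in Acvrl1 and 9930104L06Rik (0.0508 to 0.123), 14 in Myl9 (0.0502 to 0.123) and 15 in Glt8d2 (0.0527 to 0.135).

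Turning the comparison round, hippocampal values were read at the genes that changed in striated muscle. A fit of the 12 muscle and heart arrays alone, in which no hippocampus array took part, called 948 probe sets higher and 1174 lower. The median hippocampal difference was 0.01 for the first set and -0.03 for the second. It was positive for 53.9% of the higher and 40.8% of the lower set, against 47.7% of probe sets not called. Among 68 probe sets measured in all 3 tissues with a striated difference of at least 1, the hippocampal difference had the same sign in 50 and the opposite sign in 18. Over all genes, counted with 1 probe set each, the signs were the same in 9821 of 18781. For the 68, the median of the signed ratio of the hippocampal to the striated difference was 7.01%, and that of its size without sign 11.2%.

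Some genes had genotype differences in hippocampus and striated muscle without a called contrast. ER chaperones fold secreted proteins, and limma called 0 of 20 in the contrast, with 1 at an unadjusted p under 0.05, while 10 of 20 were called in striated muscle, 9 of them lower. Over all genes, 2352 of 18781 were called in striated muscle. The median difference of the 20 was -0.09 in hippocampus and -0.24 in striated muscle. Hspa5, the chaperone BiP, read 8.14, 8.05 and 7.89 in wild type and 7.59, 7.48 and 7.50 in transgenic muscle. Heart Hspa5 was 9.90, 9.86 and 10.01 against 9.27, 9.39 and 9.17. Hippocampal Hspa5 was 9.13, 9.14 and 8.99 against 8.81, 8.66 and 8.77. The transgenic arrays were below the wild type ones in every tissue. Its differences were -0.50, -0.65 and -0.34 ± 0.09 (hippocampal adjusted p = 0.562), and its contrast was 0.24 (adjusted p = 0.375).

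Hsp90b1, Sdf2l1 and Pdia6, other proteins of the same compartment, were also below in all 3 tissues, with hippocampal differences of -0.33, -0.45 and -0.28 and contrasts of 0.09, 0.41 and 0.16 that were not called. In hippocampus the genotypes were apart for 6 of the 20 ER chaperone genes (Hspa5, Hsp90b1, Calr, Pdia6, Sdf2l1 and Xbp1), all 6 below, where 8.6% of all genes were below in this way. Nfkbia, an inhibitor of NF-kappa-B that glucocorticoids induce, was above in all 3 tissues. It read 5.47, 5.57 and 5.65 in wild type and 5.99, 6.45 and 6.35 in transgenic hippocampus. Its differences were 0.93 in muscle, 0.71 in heart and 0.70 in hippocampus, with a contrast of -0.12 (adjusted p = 0.904). Map3k6, a stress-responsive kinase, gave 0.80, 1.02 and 0.59 with a contrast of -0.33 (adjusted p = 0.726), and Tsc22d3, a glucocorticoid-induced leucine zipper protein, 0.40, 0.62 and 0.37 with -0.14. Hsp90b1, Pdia6, Nfkbia, Map3k6 and Tsc22d3 fell outside the rule for naming genes, so they are examples picked from these data. A contrast that misses the threshold does not show that the tissues respond alike.

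**Figure D5:**
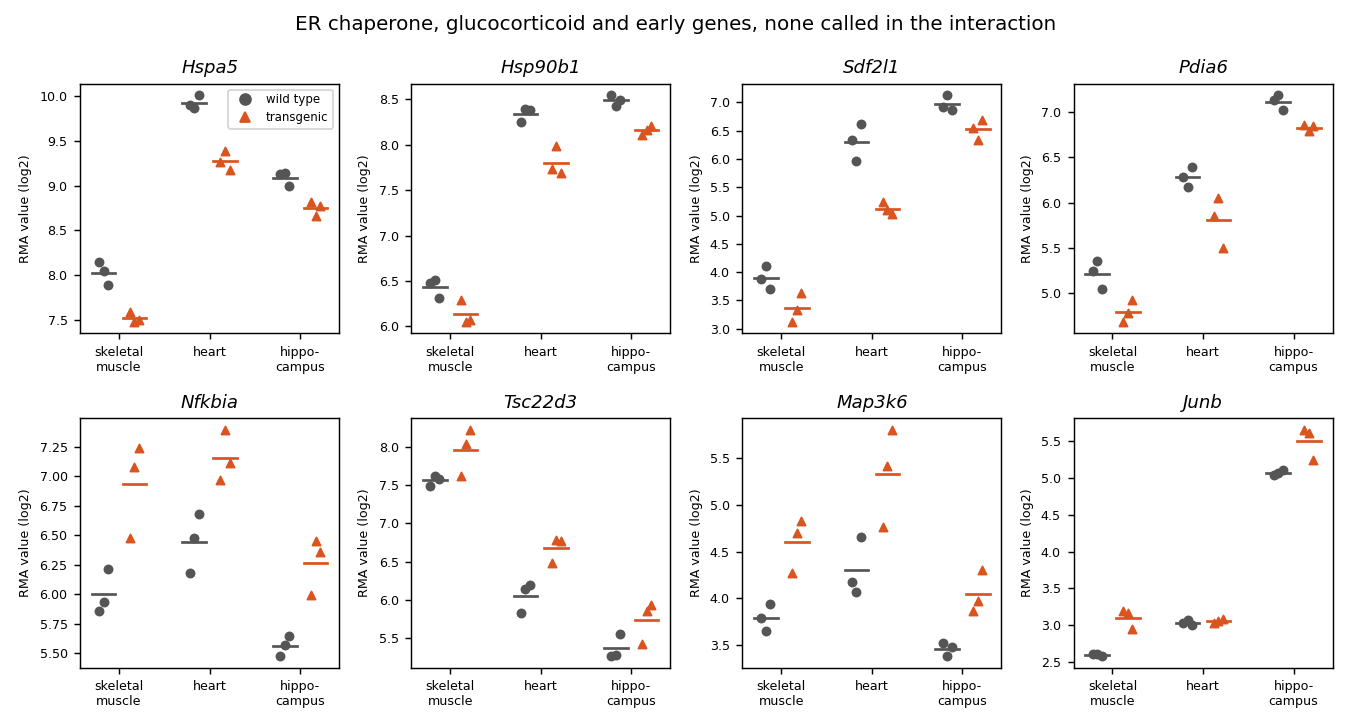
Log2 expression of 8 genes without a called contrast (Hspa5, Hsp90b1, Sdf2l1, Pdia6, Nfkbia, Tsc22d3, Map3k6 and Junb) on each of the 18 arrays, by tissue and genotype; points are arrays and bars are group means of 3. Transgenic arrays of Hspa5 lie below and those of Nfkbia above the wild type arrays in each tissue, hippocampus included. Apart from Hspa5 and Sdf2l1, the genes shown were picked from these data outside the rule for naming genes.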

How the data were processed

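Total RNA of 18 tissue samples was hybridised to Affymetrix whole-transcript arrays, per the labels' protocols. The authors deposited a table of log2 values summarised by RMA with R 2.10.0, as the submitters' processing notes say. The chip definition, filters and the set of arrays normalised jointly were not given in the sources used here. The values were used as deposited. Gene symbols came from the platform annotation: 21153 probe sets had 1 symbol, 1867 several and 12362 none, and those with several were not named. Of the probe sets with 1 symbol, 21123 matched RefSeq. limma 3.58.1 in R 4.3.3 fitted the 6 group means, with 12 residual and 2.67 prior degrees of freedom, and each contrast was tested two-sided, adjusted after Benjamini and Hochberg across the 35382 probe sets, and called under 0.05. A gene with several probe sets was counted by the probe set of highest mean. Errors of differences are standard errors of the fit. The number of arrays, 3 a group, limits the precision. The script was tested on simulated data: of 50 probe sets changed by 0.5, 1, 1.5 or 2 (log2), the contrast called 7, 40, 40 and 42, with 7 false calls. By rule, named genes were the called genes of largest contrast in each direction, the leading members of each gene list by p, and a fixed set. That set held clock, metallothionein, calcium and immediate early genes. A further rule, for genes called with the same sign in all 3 tissues, gave 0, as no probe set was called in hippocampus. Other genes, among them Junb, Cirbp, Nfkbia, Map3k6, Tsc22d3, Hsp90b1 and Pdia6, lay outside the rule and are examples picked from these data. The members and lists were chosen with earlier results of these data known. Alternatives covered normalisation, filters, weights, the prior, thresholds, replicate blocks and leaving out each array.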

Additional observations from a re-analysis of the deposited data

Results flagged for a closer look

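The genotype difference itself differed between hippocampus and striated muscle, by a test of the interaction in limma, at 472 probe sets. Within striated muscle, the difference also departed between heart and skeletal muscle at 12 of the 36 named probe sets with the largest contrasts, by the same kind of test, and in all 12 it was larger in muscle. Positive values of heart minus muscle were 3.01 for 1700001O22Rik, 2.24 for Adcy2, 1.85 for Cish, 1.69 for Odc1, 1.0 for Rbm3, 0.77 for Adhfe1 and 0.66 for Mrpl54, genes that were lower in transgenic muscle. Negative values were -2.95 for Tmem28, -2.33 for BC051142, -2.18 for Ift27, and -2.06 for both Ak4 and Snai3, genes that were higher there. For these genes the mean of muscle and heart used in the contrast stands for unequal parts. Groups of 3 arrays were not tested for outlying samples.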

How the results depend on the processing

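The count of 472 moved by over 1.5 times under several settings. Leaving out 1 array gave 247 to 464, with all 6 hippocampus arrays lowering it by over 1.5 times. The same ranges were 0 to 0 for hippocampus, 2659 to 2987 for striated muscle, 779 to 1163 for hippocampus against muscle, 85 to 185 against heart, 235 to 442 for the striated-only class, 12 to 32 for the class called in neither tissue kind, 0 to 0 for the other classes and 198 to 361 for those measured in all tissues. Without the dimmer probe sets the contrast called 913 (class 876, measured 785, against heart 347), with only those measured in all tissues 869 (class 839), with only 1 symbol 720 (class 676, measured 562), with array weights 880 (class 780, measured 679, neither 99) and with weights per tissue 795 (class 717, measured 614, neither 77). Both weightings called 1 probe set in hippocampus, in the hippocampus-only class (1). An intensity trend gave 578 measured, quantile normalisation 18 in neither, and a measured level of 5 219. At an adjusted p under 0.01 the counts were 173 for the contrast, 1761 striated, 521 against muscle, 36 against heart, 167 in the class, 6 in neither and 141 measured, and under 0.1 they were 958, 374 against heart, 869 in the class, 89 in neither and 732 measured. A 1.5-fold minimum left 649 striated and 18 in neither. Fitted on the arrays of those tissues only, hippocampus against heart called 126. Centring each array gave 490, 314 higher and 176 lower.

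Whether the replicate numbers pair the arrays could not be decided. Deviations of same-numbered arrays correlated at -0.08 to 0.05 across genotypes (9 pairs) and -0.06 to 0.09 across tissues (18 pairs). Arrays of different numbers gave -0.07 to 0.06 (18 pairs) and -0.09 to 0.09 (36 pairs). Such correlations can miss a pairing that touches few genes. For Per3 the wild type arrays kept their order in muscle and heart, and such shared orders were not counted over genes. With the number as a replicate block the contrast called 410, with genotype by number as a block 281 (89 against heart), and as a random block 470. The differences in hippocampus and in striated muscle could not be fitted with genotype by number as a block. Of 68 named calls, 41 held under every left-out array and 26 of the 50 that could be run under all 32 alternatives held under each; of the other 18, left out by a filter on dim probe sets, 12 held under every alternative run. In the alternatives run, 0 changed sign (limma).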

Other observations

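The smallest adjusted p of the contrast, 1.38e-06, belonged to a probe set annotated to several genes and therefore not named, with a contrast of -2.30 ± 0.13. Its hippocampal difference of 0.68 ± 0.11 had an adjusted p of 0.207, beside a striated mean difference of 2.98. The smallest adjusted p in hippocampus, 0.19, belonged to a probe set with no gene symbol and a difference of 1.11 ± 0.17, which was called in the contrast at 1.47 ± 0.21 (limma, adjusted p = 0.00242). Both were chosen after their values were seen.

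Genes with a single symbol and measured in all 3 tissues were also ordered by their p in hippocampus (limma). Those with the smallest p were Adssl1, an adenylosuccinate synthase, at 0.48 (adjusted p = 0.41) and Ephx1, the microsomal epoxide hydrolase, at 0.54 (adjusted p = 0.441). Rfx2, a transcription factor of cilia genes, gave -0.51 (adjusted p = 0.446) and Dedd2 gave -0.61 (adjusted p = 0.467). Adssl1 and Rfx2 were also called in the contrast, at 0.72 (adjusted p = 0.00629) and -0.77 (adjusted p = 0.00785). Ephx1 had a contrast of 0.11 (adjusted p = 0.832), its striated mean difference being 0.43. Dhps, which uses the polyamine spermidine to modify a translation factor, had a contrast of -0.66 (adjusted p = 0.00396), opposite in sign to that of Odc1. These are the 2 called of 8 polyamine genes, beside 1.96% of all genes, in a list added around Odc1 after its values were seen.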
